A study of Mus musculus with 2 samples.

Results

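Gal, Nts and Chga are the genes of 3 secreted precursors, those of galanin, of neurotensin and neuromedin N, and of chromogranin A. They are described here in endothelial cells sorted from mouse tumours, as 3 of the 19831 genes in the deposited tables. The 3 genes were chosen because their levels in these same libraries stood out, so their levels, and the difference between libraries, are a description with no test. Where in the cell population each transcript was found, and which other transcripts shared its cells, is likewise a description with no test. The genes and the lists were chosen with earlier results of these data known.

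Neuropeptides are made as long precursors that enter the regulated or constitutive secretory pathway, are cut by proprotein convertases after pairs of basic residues and are trimmed by carboxypeptidases. Galanin acts on G protein-coupled receptors in nerve, gut and endocrine tissue, and neurotensin, best known from brain and gut, acts on its own receptors and binds the sorting receptor sortilin. Chromogranin A, a granin, is an acidic protein of dense-core secretory granules and a marker of neuroendocrine cells, and fragments of it act on blood vessels. Tip cells are the endothelial cells that lead a growing sprout, and Apln, Esm1, Angpt2 and Pgf are among the transcripts used to mark them.

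The cells came from tumours of adult mice of the C57BL/6 strain and had been sorted on CD31, an endothelial surface protein, before droplet single-cell RNA sequencing of 3′ tags on the 10x Genomics system. The study had 1 control library and 1 library labelled NF2 KO. Nf2 codes for merlin, which acts upstream of the Hippo pathway. The tumour type, the number of mice pooled, the control genotype, the promoter behind the deletion and the deleted exons are not given in the sources used here. In each table the barcodes are split by prefix into 2 runs, whose meaning is not stated. The runs are therefore given side by side and not treated as replicates.

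After filtering, 1638 of 2826 control cells (1024 in run 1 and 614 in run 2) and 2763 of 3368 NF2 KO cells (1120 and 1643) were retained, with median depths of 15636 and 17104 unique molecular identifiers (UMIs, counted molecules) per cell. Control run 1 stood apart before filtering, with a median of 2746 UMIs per deposited cell against 14337 to 19409 in the other 3 runs. No more than 1 barcode was shared by any pair of runs. The 15 endothelial markers, Pecam1 and Cdh5 among them, summed to between 6688 and 9497 counts per 1000000 UMIs (CPM) in the 4 runs, and the neuronal and neuroendocrine list to between 56.7 and 84.3 CPM, with Insm1 and Elavl4 at 0. Nf2 itself was at 20.8 and 22.6 CPM in the control runs and at 20.2 and 20.4 CPM in the NF2 KO runs. A 3′ tag can lie outside the deleted exons, so this level does not check the label, and NF2 KO below means the library so labelled. With 1 library per group no test between conditions was possible, and brackets give exact 95% intervals that cover counting error only.

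The transcripts are identified by the stretches that code for their peptides, shown to make clear what product each precursor can release. In the GENCODE M21 annotation of GRCm38, Gal (ENSMUSG00000024907.7) lies at chr19:3409915-3414544 on the minus strand, Nts (ENSMUSG00000019890.4) at chr10:102481756-102490486 on the minus strand, and Chga (ENSMUSG00000021194.6) at chr12:102554969-102565028 on the plus strand. All 3 are protein-coding and no other annotated gene overlaps them. The lines below run 5′ to 3′ in the coding strand, and capitals mark the codons of every pair of basic residues in the stretch. The galanin stretch covers residues 31 to 64 of the 124-residue precursor, in exons 3 and 4. That of neuromedin N and neurotensin covers residues 140 to 164 of 169, in exon 4. Its pair AGAAGG lies within neurotensin and does not bound a peptide. That of a short peptide cut from chromogranin A covers residues 356 to 373 of 463, in exon 7.
Gal, galanin: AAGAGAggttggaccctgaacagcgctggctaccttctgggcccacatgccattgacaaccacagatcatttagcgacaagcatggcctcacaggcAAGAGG
Nts, neuromedin N and neurotensin: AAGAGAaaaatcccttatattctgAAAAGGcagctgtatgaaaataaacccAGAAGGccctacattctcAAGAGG
Chga, peptide between basic pairs: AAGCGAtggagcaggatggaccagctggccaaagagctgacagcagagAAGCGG

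The promoters are shown because Gal and Chga shared cells while Nts and Chga rarely did, as given below. The sequences are from RefSeq on GRCm38.p6, from 250 bases before the RefSeq start of each gene, and 5 short motifs were searched on both strands of 280 bases. The motifs were TGANTCA (AP-1), TGACG (the core of the cyclic AMP response element), TATAAA (a core promoter element), GGAATG (TEAD) and ACGTG (hypoxia response element). No match of one overlapped a match of another, and capitals mark the matches. The Nts window printed stops at 212 bases because the GENCODE start lies 68 bases upstream of the RefSeq start.
Gal, chr19:3414515-3414794, minus strand: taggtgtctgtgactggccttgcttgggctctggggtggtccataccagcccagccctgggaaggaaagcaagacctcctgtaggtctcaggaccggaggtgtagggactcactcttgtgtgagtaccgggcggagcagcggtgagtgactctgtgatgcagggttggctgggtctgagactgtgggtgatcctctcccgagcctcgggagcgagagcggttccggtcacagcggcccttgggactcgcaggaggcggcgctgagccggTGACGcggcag
Nts, chr10:102490457-102490668, minus strand: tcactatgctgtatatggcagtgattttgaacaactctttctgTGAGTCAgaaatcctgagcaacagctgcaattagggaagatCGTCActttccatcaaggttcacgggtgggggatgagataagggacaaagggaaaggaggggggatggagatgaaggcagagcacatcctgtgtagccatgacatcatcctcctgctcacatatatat
Chga, chr12:102554691-102554970, plus strand: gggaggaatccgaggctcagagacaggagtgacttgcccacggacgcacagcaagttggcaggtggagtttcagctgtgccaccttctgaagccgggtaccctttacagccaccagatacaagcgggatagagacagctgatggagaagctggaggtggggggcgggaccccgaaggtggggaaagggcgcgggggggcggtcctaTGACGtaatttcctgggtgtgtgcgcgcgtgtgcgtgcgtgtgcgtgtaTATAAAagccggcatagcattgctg

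All 3 windows held the letters TGACG on one strand, 44 bases before the RefSeq start in Chga, 166 bases before it in Nts and 20 bases into the transcript in Gal. Of 32851 RefSeq promoters of this length, 19.9% held the same letters. TGANTCA was found in the Nts window, as TGAGTCA 207 bases before the start, and occurs in 7.46% of promoters. TATAAA was found in the Chga window, which 13.1% of promoters hold, between the RefSeq start and the GENCODE start 28 bases further on. GGAATG, present in 13.9% of promoters, was in none of the 3 windows. The same held for ACGTG, present in 18.5% of promoters. These matches describe letters only.

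Gal was at 153 CPM (147 to 160) in control run 1 and 325 CPM (316 to 334) in control run 2, against 53.5 CPM (50.2 to 56.9) in NF2 KO run 1 and 39.8 CPM (37.7 to 42.0) in run 2. Both NF2 KO runs were below both control runs, although the control runs differed by 2.12-fold between themselves. Over the libraries Gal was at 241 CPM in control and 44.6 CPM in NF2 KO, 5.41-fold lower (5.16 to 5.67), and between single runs the difference ranged from 2.86-fold to 8.16-fold. Without control run 2 it was 3.43-fold lower.

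Nts was at 124 CPM (118 to 130) and 46.3 CPM (42.9 to 49.8) in control runs 1 and 2, and at 7.24 CPM (6.08 to 8.57) and 50.9 CPM (48.6 to 53.4) in NF2 KO runs 1 and 2. The runs overlapped, since NF2 KO run 2 lay above control run 2. The summed libraries gave 84.0 and 35.5 CPM, 2.37-fold lower in NF2 KO (2.23 to 2.51), but the NF2 KO runs differed by 7.03-fold between themselves. Without control run 1 the difference was 1.30-fold, and without NF2 KO run 2 it was 11.6-fold. Without clusters 1, 7 and 12, whose leading genes hold more markers of another cell type than of endothelium, it was 3.93-fold.

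Chga was at 196 CPM (189 to 203) and 352 CPM (343 to 362) in the control runs and at 472 CPM (462 to 482) and 443 CPM (436 to 450) in the NF2 KO runs. Both NF2 KO runs were above both control runs. The library levels were 276 and 453 CPM, a ratio of 1.64 (1.60 to 1.68), while the control runs differed by 1.80-fold, more than the libraries did. Without control run 1 the ratio was 1.29. The Chga ratio also depended on 1 group of cells: without cluster 7, in which 35 control and 852 NF2 KO cells fell, it was 0.846 (0.820 to 0.872), which turns the direction.

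A gene was counted as lower or higher where its libraries differed by at least 1.5-fold, the interval excluded 1 and its mean was at least 20 CPM. By this rule Gal and Nts were lower and Chga higher in NF2 KO, where 5.23% of 5835 genes were lower and 2.84% higher. Both NF2 KO runs were below both control runs for 37.5% of these genes and above them for 27.7%. Since the genes were chosen on this contrast, nothing is read from these shares. The share of cells with a transcript and its level in those cells are given separately next. These measures are not independent, since a cell with less of a transcript is more often missed.

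To compare shares of cells at equal depth, each retained cell with at least 5000 UMIs was thinned at random to 5000, which left out 370 control and 142 NF2 KO cells. A cell with at least 1 UMI of a gene is called positive. Gal was then found in 8.89% (6.85 to 11.3) and 15.7% (12.8 to 18.9) of the cells of control runs 1 and 2, and in 5.48% (4.19 to 7.03) and 5.12% (4.08 to 6.33) of those of NF2 KO. Nts was found in 7.70% and 7.08% of control cells and in 0.945% (0.454 to 1.73) and 2.56% (1.83 to 3.47) of NF2 KO cells. In its share of cells with a UMI, unlike in its level, Nts was close in both control runs, and both lay above both NF2 KO runs. Cells with at least 2 Nts UMIs made up 4.59% and 3.88% of control cells and 0.473% and 1.73% of NF2 KO cells, in the same order of the libraries. Chga was found in 20.7% and 19.4% of control cells and in 26.7% and 25.8% of NF2 KO cells. Unthinned, the library shares were 16.4% and 8.32% for Gal, 10.3% and 3.04% for Nts, and 23.7% and 31.2% for Chga.

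**Figure D1:**
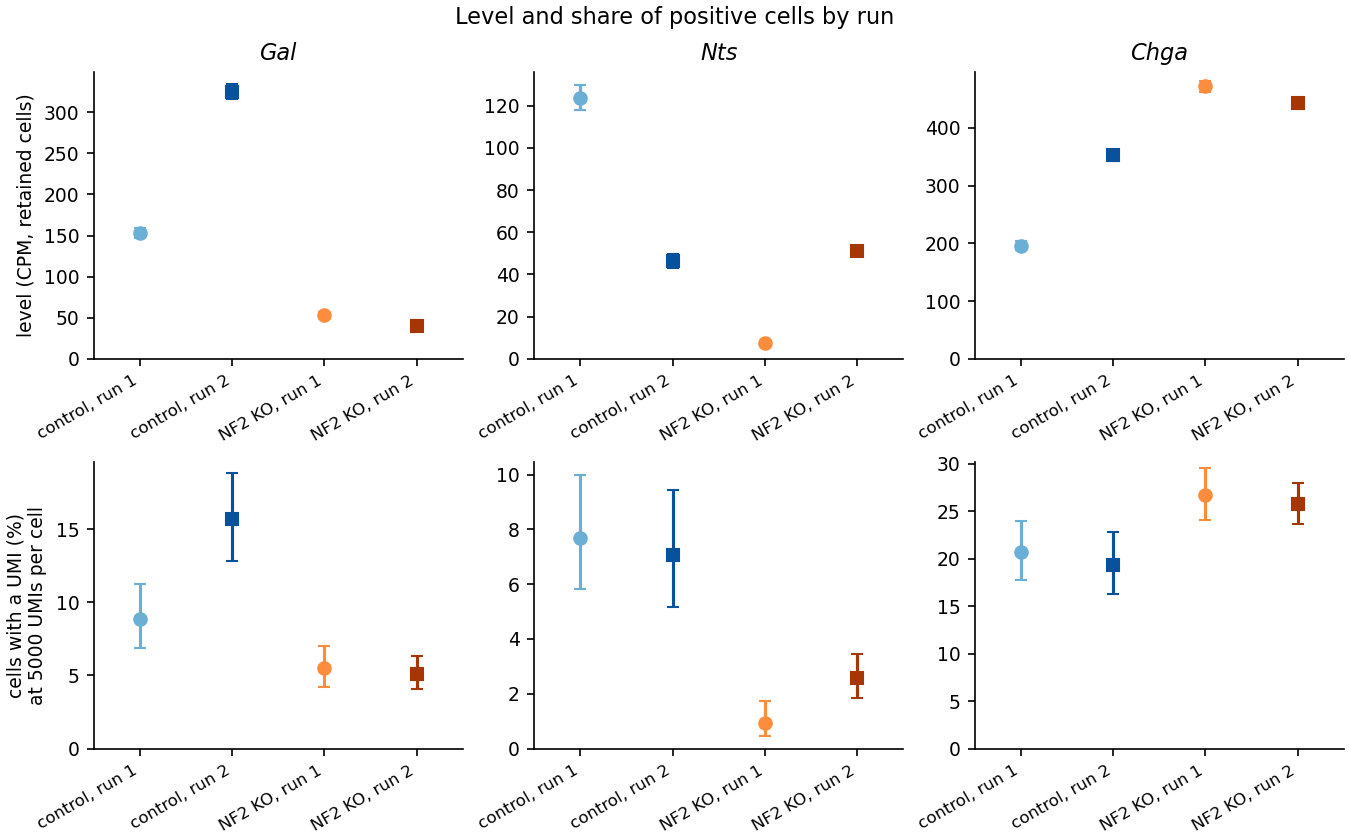
Top row, level in retained cells (CPM) of Gal, Nts and Chga in each of the 4 runs; bottom row, share of cells with a UMI (%) after thinning to 5000 UMIs per cell. Points are runs and bars exact 95% counting intervals. Gal was below 54 CPM in both NF2 KO runs, the Nts levels overlapped while its shares did not, and Chga was highest in the NF2 KO runs.

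The level in the positive cells moved differently for each gene. A positive cell held on average 8.68 and 9.34 Gal UMIs per 5000 in the control runs and 3.84 and 3.18 in the NF2 KO runs. Cells with at least 5 Gal UMIs made up 4.89% and 7.76% of control cells and 1.13% and 1.09% of NF2 KO cells. Exactly 1 Gal UMI was held by 22.2% of the Gal-positive cells of control and 51.4% of those of NF2 KO. Gal was thus lower in NF2 KO both in the share of positive cells and in the level of a positive cell. Whether these are separate changes was not tested, since cells with less Gal are also more often missed. For Nts the mean was 9.42 and 4.38 UMIs in control and 3.3 and 9.35 in NF2 KO, with no order by library. These means rest on few cells, the highest with 110 UMIs in control run 1 and 98 in NF2 KO run 2. The medians were 2, 2, 1.5 and 3 in the 4 runs. For Chga it was 5.11 in control run 1, and 8.17, 7.81 and 8.43 in the other runs, so that control run 1 stood apart from control run 2 as well as from NF2 KO.

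A few cells held a large part of each transcript, more so for Nts than for Gal and Chga. The top 1% of cells by UMIs of the gene held 41.7% of the Gal UMIs of the control library and 64.7% of those of NF2 KO. For Nts they held 69.8% and 94.6%, and for Chga 32.7% and 21.3%. In NF2 KO, 28 cells thus carried nearly all Nts, and 1 cell of run 2 with 618 Nts UMIs held 32.8% of the library's Nts, which was 1.93% of all UMIs of that cell. The highest cells had 331 (control) and 160 (NF2 KO) Gal UMIs, and 422 and 374 Chga UMIs. Ranked by variance over mean in thinned cells, Nts was number 3, Gal number 7 and Chga number 13 of 5860 genes in the control, and Nts 4, Chga 13 and Gal 30 of 5790 genes in NF2 KO.

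**Figure D2:**
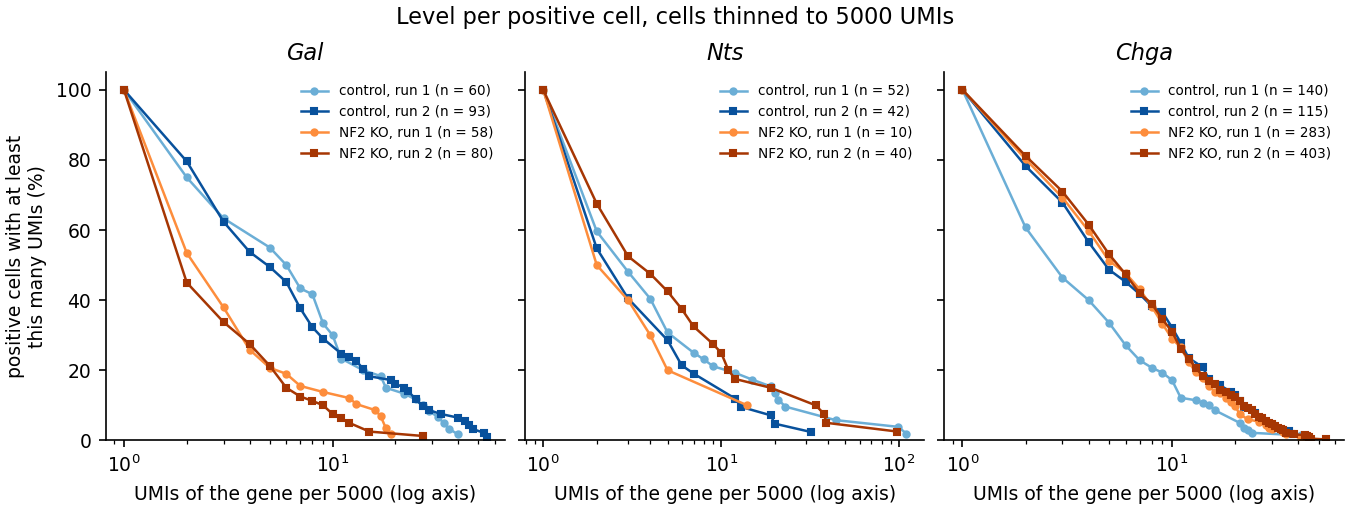
Share of positive cells (%) with at least the number of UMIs on the x axis (UMIs of the gene per 5000, log axis), 1 line per run, with the number of positive cells in the key. The Gal lines of the NF2 KO runs lie to the left of the control lines, the Nts lines cross the libraries, and for Chga control run 1 lies to the left of the other 3.

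The positive cells were unevenly spread over the 10 retained clusters, which were built without the 3 genes among the variable genes and are called by number and leading genes. Gal was found in 21.0% of thinned control cells of cluster 1 (501 control and 8 NF2 KO cells, led by Gal itself, Kcnj8, Ildr2 and Piezo2), at 391 CPM. Outside that cluster Gal was still 3.23-fold lower in NF2 KO. Of the 2373 Gal UMIs of NF2 KO, 1400 lay in cluster 7 (F2rl1, Cldn4). There 9.02% (7.15 to 11.2) of thinned NF2 KO cells were positive, at 78.9 CPM, and 2 of 26 control cells. In cluster 3, led by the hypoxia-induced transcripts Vegfa, Ero1l and Bnip3, the share of Gal-positive cells was 13.8% (7.91 to 21.7) in control and 13.1% (9.51 to 17.5) in NF2 KO, with 184 and 125 CPM. Without the highest cell of each library, the levels in cluster 3 were 134 and 113 CPM. The shares were thus close there, and also in cluster 10 (Rsad2, Ifit3), at 15.2% (5.11 to 31.9) in control and 13.1% (5.84 to 24.2) in NF2 KO. In cluster 5 (Cd74, Ubd, Cxcl9), by contrast, Gal was at 186 and 19.3 CPM. In the dividing cells of cluster 9 (Hist1h1b, Top2a, Mki67) it was at 114 and 4.23 CPM.

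Gal was nearly missing from cluster 6, led by Col13a1, Cd300lg and the endothelin receptor gene Ednrb, with 2 control and 1 NF2 KO cell positive. It was also nearly missing from cluster 8, led by the venular genes Ackr1 and Selp, with 0 of 30 and 1 of 123 cells. In cluster 6 the positive cells were 0.995% (0.121 to 3.55) of control and 0.190% (0.00480 to 1.05) of NF2 KO cells at 5000 UMIs. The part of RNA free in the droplets in the shares of positive cells was not tested. The clusters left out were shallow, and in the control library they held the endothelial markers at 7721 CPM, against 9345 CPM in the retained cells. They also held the neutrophil list at 443 CPM there, against 85.5 CPM in the retained cells. In those left-out cells, thinned to 1000 UMIs, 8.57% (6.73 to 10.7) were Gal-positive in the control library, against 6.11% (4.99 to 7.38) of retained cells, and 1.31% against 2.28% in NF2 KO. Nts was found in 5.59% (4.11 to 7.41) of left-out and 2.93% (2.17 to 3.87) of retained control cells and in 0.783% and 0.941% in NF2 KO. Chga was found in 8.45% and 9.83% in control and 13.3% and 16.3% in NF2 KO. Left-out control cells, with a median of 1814 UMIs, were thus positive for Nts more often than retained ones. This comparison was not split by run, and 50.4% of deposited cells were retained in control run 1 against 77.3% in run 2. Nts was at 124 and 46.3 CPM in these runs, and the part of the mix of runs was not tested.

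Nts had another distribution, and its cluster levels rest on few cells. Among clusters with at least 100 control cells, its control level was highest in clusters 6 and 5, at 251 and 173 CPM, with 9.45% and 13.0% of cells positive. In NF2 KO the same clusters were at 17.7 and 36.6 CPM, with 1.71% and 3.11% positive. Without the highest cell of each cluster and library, the control levels were 149 and 146 CPM and those of NF2 KO 11.7 and 20.5 CPM. No such cluster had a lower share in control than cluster 1, at 4.87% (3.11 to 7.22). In NF2 KO the share in cluster 7 was 0.366% (0.0755 to 1.07). The part of free Nts RNA in these shares was not tested. Cluster 12, led by Sult1a1 and Tagln and including the lipid-handling genes Cd36 and Lpl, had 219 CPM in control, from 2 positive cells of 31, and 239 CPM in NF2 KO. There the cell with 618 Nts UMIs gave most of the 789 of the cluster, and without the highest cell of each the levels were 48.5 and 52.3 CPM. In the venular cluster 8 Nts was at 39.5 CPM in control, from 3 positive cells, and 93.1 CPM in NF2 KO, from 8, while the share of positive cells was 6.67% and 4.88%. In cluster 9 it was at 56.7 and 89.5 CPM, of which 1 NF2 KO cell gave 339 of 465 UMIs, and without the highest cell of each at 13.6 and 24.5 CPM. In the hypoxia-led cluster 3 Nts was found in 7 of 109 thinned control cells and in none of 319 NF2 KO cells at full depth, which allows a share of cells with a UMI of up to 0.940% and does not limit cells that express Nts below detection.

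Chga was most frequent in cluster 7, which is led by the protease-activated receptor gene F2rl1, the claudin gene Cldn4 and Gstt1 and has Chga among its 10 leading genes. There 47.2% (43.7 to 50.7) of thinned NF2 KO cells were positive, at 885 CPM, against 3 of 26 control cells. In cluster 5 the libraries were close, with 564 CPM and 27.9% positive in control and 543 CPM and 27.5% in NF2 KO. In cluster 3 Chga was at 185 CPM in control and 430 CPM in NF2 KO, with 22.9% and 35.0% positive. It was near 0 in venular cluster 8 (0 of 30 and 1 of 123 cells) and low in cluster 6, at 18.8 and 22.5 CPM. Clusters 1 and 7 each came almost wholly from 1 library, and a cell type and a library cannot be told apart there.

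**Figure D3:**
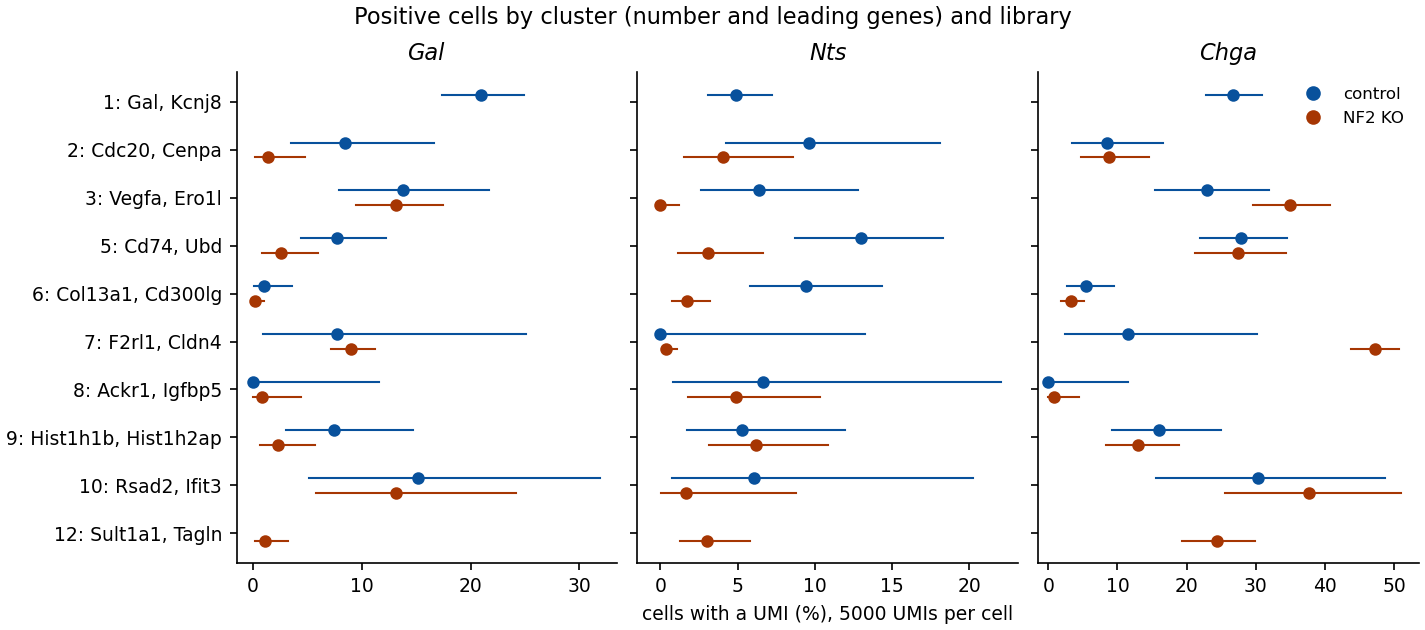
Share of cells with a UMI (%) at 5000 UMIs per cell, by cluster (number and first 2 leading genes) and library, for cluster and library pairs with at least 20 thinned cells. Points are shares and bars exact 95% counting intervals. Gal and Chga share low values in clusters 6 and 8, where Nts was found in both libraries, and Chga peaks at 47.2% in the NF2 KO cells of cluster 7.

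Gal and Chga shared cells more often than their shares alone would give. Chga was found in 31.7% (20.3 to 45.0) of Gal-positive and 19.7% of Gal-negative cells in control run 1, and in 31.2% (22.0 to 41.6) and 17.2% in control run 2. In the NF2 KO runs it was found in 37.9% (25.5 to 51.6) against 26.1%, and in 40% (29.2 to 51.6) against 25.02%. The log2 odds ratio, which is 0 where presence of one says nothing of the other, was 0.94, 1.13, 0.80 and 1.005 in the 4 runs, so it lay between 0.80 and 1.13 in all of them despite the lower Gal level in NF2 KO. Gal-positive cells were also the deeper ones before thinning, with medians of 19549, 27281, 19628 and 24212 UMIs against 16726, 21252, 15648 and 19131 in the Gal-negative cells. Both genes were also frequent in the same clusters, as in NF2 KO cells of cluster 7 (9.02% for Gal and 47.2% for Chga). Both were rare in NF2 KO cells of cluster 6 (0.190% and 3.23%). The part of the clusters in the shared detection was not tested, and that of depth was not tested beyond the thinning.

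Nts and Chga were seldom found together. Of the Nts-positive cells 9.62% (3.20 to 21.0) and 11.9% (3.98 to 25.6) held Chga in the control runs, against 21.7% and 19.96% of the Nts-negative cells. In NF2 KO 0 of 10 (0% to 30.9%) and 1 of 40 Nts-positive cells held Chga, where 27.0% and 26.4% of the Nts-negative cells did. Gal and Nts were found together in 4 and 6 control cells, where 4.62 and 6.59 would be found if they were independent, and in 1 and 0 NF2 KO cells, too few to describe further.

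Gal-positive cells had more of the tip list. Its 27 genes summed to 25683 and 24101 CPM in the Gal-positive and 21826 and 19340 CPM in the Gal-negative cells of the control runs. In NF2 KO they summed to 19569 and 21003 CPM against 15198 and 14420 CPM. The ratios were 1.18, 1.25, 1.29 and 1.46 (1.42 to 1.49 in the last), and 1.37 (1.35 to 1.38) with the runs pooled. Of the 24 tip genes found in 1% to 95% of thinned cells, 21 were more often present in Gal-positive cells in all 4 runs and 1 less often in all 4. Of all 10532 genes so detected, 11.3% were more often and 10.4% less often present in Gal-positive cells in all 4 runs. That 1 gene was Kdr, the main receptor of VEGF, found in 57.0% of Gal-positive and 65.8% of Gal-negative cells over all runs. The largest log2 odds ratios were those of Igfbp3 at 3.02, an insulin-like growth factor binding protein, Pgf at 2.93, the placental growth factor, and Trp53i11 at 2.16 (0.48 to 3.20 within runs). Pgf was found in 78.3%, 88.2%, 91.4% and 90.0% of Gal-positive cells in the 4 runs, against 52.2%, 42.0%, 48.6% and 45.9% of the others. The pooled value of Igfbp3 includes the libraries' own difference, since it was at 6140.0 CPM in control and 2036 CPM in NF2 KO. Within runs its log2 odds ratio was still 1.84 to 2.75. Igfbp3 was found in most cells, in 97.9% of Gal-positive and 84.4% of Gal-negative cells over all runs. Its level in Gal-positive over Gal-negative cells was 1.37, 1.1998, 0.979 and 1.14 in the 4 runs. In NF2 KO run 1 the level was thus not higher in Gal-positive cells, at 2007 against 2050 CPM. After Kdr, Cd34 had the smallest log2 odds ratio, at 0.02.

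The cells of each run were ordered by their summed tip level and divided into 4 groups of equal size. The share of Gal-positive cells went from 2.37% in the lowest group to 11.9% in the highest in control run 1 and from 2.01% to 22.3% in control run 2. In NF2 KO it went from 0.755% to 10.2% and from 0.512% to 11.0%. In all 4 runs the lowest tip group had the fewest Gal-positive cells. In the control runs the next to highest group (13.0% and 22.3%) was as high as the highest, within counting error.

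Nts-positive cells had less of the tip list, with ratios of 0.859 and 0.905 in the control runs and 0.665 and 0.649 in NF2 KO, and 0.918 (0.901 to 0.936) with the runs pooled. The pooled value lies outside the 4 runs, because 94 of the 144 Nts-positive cells came from control, where the tip list summed to 20714 CPM or more against at most 15633 CPM in NF2 KO. Combined within runs the ratio was 0.815. NF2 KO run 1 has only 10 positive cells and is left out of the counts of genes. In the other 3 runs, 13 of 24 tip genes were less often present in Nts-positive cells and 1, Kdr, more often. Over all 10532 genes the shares were 9.87% less often and 19.6% more often. Apln, the ligand of the apelin receptor, was found in 50%, 52.4% and 45% of Nts-positive cells, against 74.96%, 70.1% and 87.3% of the others. Angpt2, the antagonist of the receptor Tie2 in sprouting vessels, was found in 59.6%, 61.9% and 42.5% against 78.0%, 75.5% and 81.2%. Kdr was found in 77.1% of Nts-positive and 64.6% of Nts-negative cells over all runs, and it was followed in the pooled values by Plaur, the urokinase receptor gene, and the netrin receptor gene Unc5b. Within runs Plaur had both signs, and Unc5b, at 0.55 when pooled, lay at or below 0, from -0.73 to -0.01. The share of Nts-positive cells was highest in the lowest tip group, at 11.8%, 9.40%, 2.64% and 5.88% in the 4 runs, and was 4.76%, 5.41%, 0.379% and 0.513% in the highest.

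Chga-positive cells had slightly more of the tip list, with ratios of 1.03 and 1.13 in the control runs and 1.14 and 1.25 in NF2 KO, and 1.12 (1.11 to 1.13) pooled. Of 24 tip genes, 15 were more often present in Chga-positive cells in all 4 runs and 3 less often. Over all 10532 genes the shares were 10.2% more often and 14.7% less often. Pgf had the largest log2 odds ratio, at 2.62, with 76.4%, 77.4%, 83.0% and 81.4% of Chga-positive cells positive for it against 48.8%, 42.5%, 39.2% and 36.6% of the others. It was followed by Apln at 1.97 and Adm, the vasodilator adrenomedullin, at 1.92. Kdr at -1.12 and Inhbb, an activin subunit, at -0.58 were the smallest. Across the tip groups the share of Chga-positive cells went from 10.9% to 31.8% and from 10.7% to 35.6% in NF2 KO. In control run 1 it was 20.7%, 23.7%, 16.6% and 22.0%, with no order, and in control run 2 it was 11.4% in the lowest and 25% in the highest group.

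**Figure D4:**
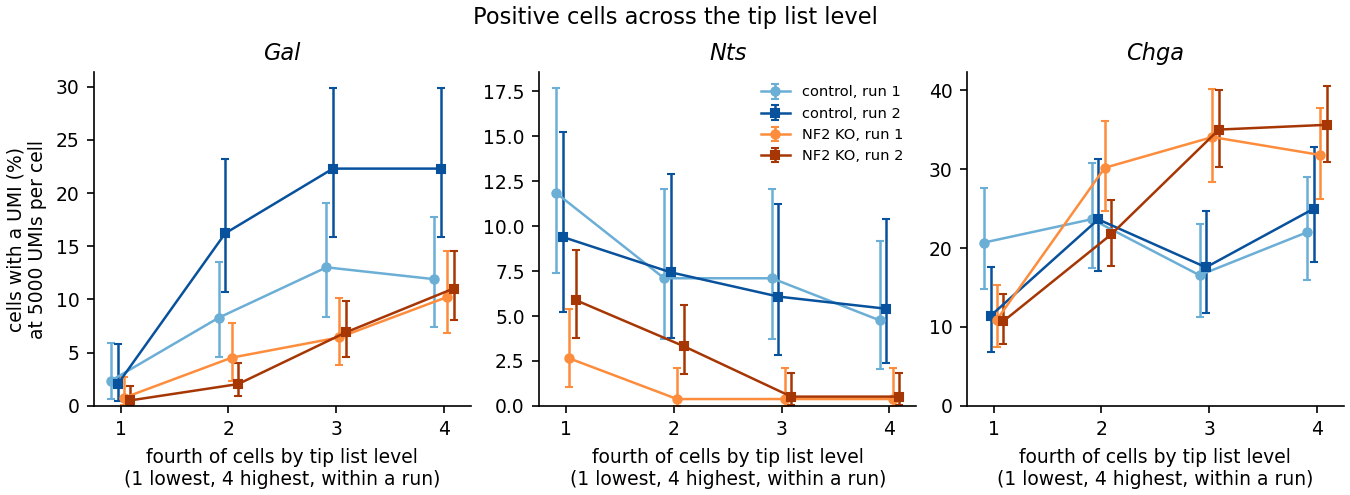
Share of cells with a UMI (%) of each gene in 4 equal groups of the cells of a run, ordered by the summed level of the 27 tip genes, at 5000 UMIs per cell. Points are runs and bars exact 95% counting intervals. Gal goes up from the lowest group in all 4 runs, Nts goes down, and Chga goes up in the NF2 KO runs but has no order in control run 1.

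The capillary list, with Gpihbp1, Cd36 and Ednrb among 15 genes, split the 3 transcripts the other way. Its level in Gal-positive over Gal-negative cells was 0.672, 0.836, 0.579 and 0.574 in the 4 runs, and for Chga 0.844, 0.851, 0.516 and 0.480. For Nts it was 1.38, 1.16, 1.41 and 1.96. Of 14 capillary genes, 10 were less often present in Gal-positive cells in every run and 1 more often, and 7 were less often present in Chga-positive cells and none more often. In Nts-positive cells 11 were more often present in the 3 runs used and none less often. These counts stand beside shares over all genes of 10.4% less often for Gal, 14.7% less often for Chga and 19.6% more often for Nts. Aqp1, a water channel, led for Nts, in 84.0% of Nts-positive and 63.0% of Nts-negative cells over all runs, although in control run 2 it was at 81.0% and 80.8%.

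Genes of the hypoxia response were higher in Gal-positive cells, at 1.13, 1.37, 1.41 and 1.76 times the level of the others, and in Chga-positive cells at 1.06, 1.22, 1.27 and 1.35. In Nts-positive cells they were at 0.853, 0.921, 0.631 and 0.519. Pgk1, a glycolytic enzyme, led for Gal at a pooled log2 odds ratio of 1.99, with 0.16 to 5.15 within runs, and Adm for Chga. Pdk1, which restrains entry of pyruvate into mitochondria, led for Nts at -0.01. The venous and venular list was lower in Gal-positive cells (0.871, 0.710, 0.680 and 0.665) and in Chga-positive cells (0.713, 0.661, 0.547 and 0.546). For Nts it lay between 0.936 and 1.30.

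Arterial and Notch genes as a list differed little, with ratios of 0.914 to 1.04 for Gal, 1.08 to 1.13 for Nts and 0.912 to 1.02 for Chga. Within that list Gja4, the arterial connexin 37 gene, was found in 17.3%, 9.52% and 10.0% of Nts-positive cells in the 3 runs used, against 2.89%, 2.36% and 0.854% of the others. Its log2 odds ratio with Nts, at 3.27 over all runs, was larger than that of any tip gene with Nts. These shares rest on 52, 42 and 40 Nts-positive cells. The pooled value also includes the libraries' own difference, since Nts and Gja4 were each found in a larger share of control cells. The largest values of that list over pooled runs were those of Unc5b for Gal, at 0.87, and Notch4, a Notch receptor, for Chga, at 0.35. Unc5b was at 106 CPM in control and 21.8 CPM in NF2 KO, and within runs its value for Gal was 0.35, -0.02, 1.003 and 1.24.

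The cell cycle list was lower in Chga-positive cells in all 4 runs (0.675, 0.767, 0.506 and 0.487) and in Gal-positive cells in 3 of them (0.547, 0.473 and 0.530), while control run 1 was at 1.05. For Nts it was 0.948 and 0.964 in control and 1.16 and 2.21 in NF2 KO. Genes of MHC class II, the antigen-presenting molecules, were higher in Nts-positive cells of both control runs (2.43 and 1.60) and of NF2 KO run 2 (1.91), with a value of 0.594 from the 10 cells of NF2 KO run 1. The list summed to 687 CPM in both control runs and to 103 and 288 CPM in NF2 KO, so values pooled over runs carry that difference. H2-DMa led, and within the 3 runs used it was found in 15.4%, 14.3% and 7.5% of Nts-positive and 6.58%, 6.72% and 2.82% of Nts-negative cells. The interferon list was higher in Chga-positive cells in every run, at 1.17, 1.25, 1.23 and 1.17. Immediate early genes lay between 0.763 and 0.969 for Gal, between 0.955 and 1.25 for Nts, and between 0.912 and 1.06 for Chga.

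The YAP and TAZ target list, which the Hippo pathway restrains, gave values on both sides of 1. Its ratio was 0.815 and 0.853 in Gal-positive cells of the control runs and 1.12 and 1.28 in those of NF2 KO. For Chga it was 0.892 and 0.967 in control and 1.19 and 1.21 in NF2 KO, and for Nts 0.760 and 0.996 in control and 0.403 and 0.728 in NF2 KO. Tgfb2, a ligand of the transforming growth factor family, led for Chga, in 44.2% and 42.7% of Chga-positive cells of the NF2 KO runs against 20.3% and 15.9% of the others, and in 13.6% and 9.57% against 12.5% and 7.53% in control. Tgfb2 is also among the leading genes of cluster 7. Gadd45a led for Gal at 1.14, and Dlc1 for Nts at 0.93.

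**Figure D5:**
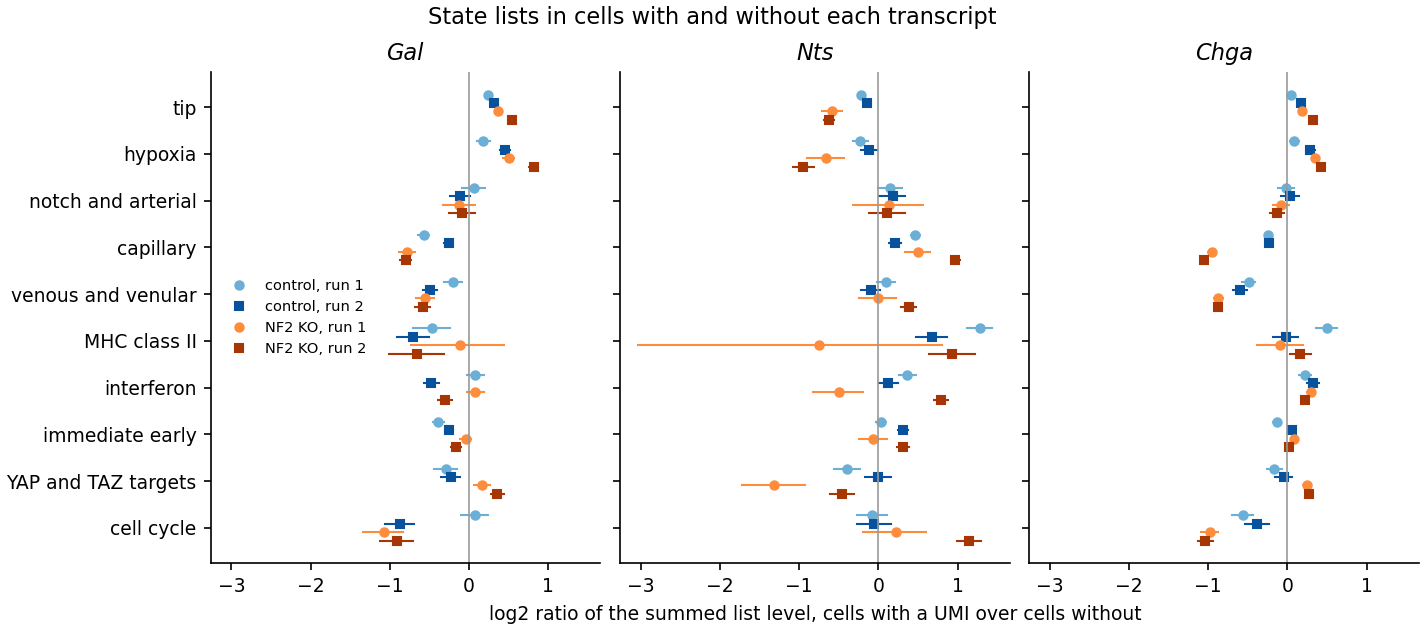
Log2 ratio of the summed level of each state list in cells with a UMI of the gene over cells without, after thinning to 5000 UMIs; points are runs and bars 95% counting intervals. In the tip and hypoxia rows Gal and Chga lie to the right of 0 and Nts to the left in all 4 runs, and in the capillary row the sides are exchanged.

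Across all genes found in 5% to 95% of thinned cells, those most like each transcript were ranked by the lowest log2 odds ratio over the runs with at least 20 positive cells. Of 6909 genes, Gal was most like Mif, the macrophage migration inhibitory factor (1.99 to 2.46 over 4 runs), Prss23 (1.97 to 2.86), AA467197 (1.95 to 5.05), Cd63 (1.69 to 2.92) and Pgf (1.69 to 3.36). Mif was found in 96.6% of Gal-positive and 84.9% of Gal-negative cells, and Prss23, a secreted serine protease, in 94.5% and 74.8%. Chga was most like Bmp2, the bone morphogenetic protein (1.80 to 2.54), Efemp1, a matrix glycoprotein (1.79 to 2.40), Pgf (1.75 to 2.92), Gm37800 (1.69 to 3.34) and Kit, the stem cell factor receptor (1.37 to 1.62). Bmp2 was found in 58.2% of Chga-positive and 25.6% of Chga-negative cells. Pgf was thus among the 5 for both Gal and Chga.

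Over 3 runs and 6979 genes, Nts was most like Thbd, the gene of the anticoagulant receptor thrombomodulin (1.31 to 2.25), Abi3 (1.30 to 1.37), 1110012L19Rik (1.19 to 1.84), Stom (1.19 to 1.996) and Rbp7, a retinol-binding protein (1.13 to 2.06). Thbd was found in 34.7% of Nts-positive and 16.7% of Nts-negative cells. None of these 5 was among those of Gal or Chga. With 40 to 52 Nts-positive cells in a run, these ranks rest on few cells.

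Most of the listed genes that make and receive the peptides were measured in the same cells. Of 15 listed granin and prohormone processing genes 14 were in the tables, all but the convertase gene Pcsk2. Of these, 5 reached a mean of 20 CPM, and 2 of the 5 were lower in NF2 KO, none higher and 3 not past the rule. Their median log2 ratio was -0.48 against -0.03 over all genes tested, of which 5.23% were lower and 2.84% higher. Cpe, the carboxypeptidase that trims cut peptides, was at 103 and 110 CPM in control and 75.3 and 30.9 CPM in NF2 KO, 2.29-fold lower (2.17 to 2.41), and without NF2 KO run 2 it was 1.41-fold lower, which does not pass the rule. Furin, the convertase of the constitutive pathway, was at 67.7 and 59.8 CPM in control and 38.1 and 41.2 CPM in NF2 KO, 1.59-fold lower (1.49 to 1.69), and 1.49-fold lower without control run 1. Cpd had a ratio of 0.715, Pam, the enzyme that amidates galanin, a ratio of 1.19 (1.11 to 1.28), and the protease gene Ctsl, at 961 and 859 CPM, a ratio of 0.894. Pcsk6 was at 23.1 CPM in control and 9.03 CPM in NF2 KO, below the mean level set for a call.

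The convertase gene Pcsk1 and the granin gene Scg2 had no UMI in either library, which allows up to 0.102 CPM in control and 0.0564 CPM in NF2 KO, and Chgb, the granin most like Chga in function, had 1 and 2 UMIs. The processing list as a whole was higher in Gal-positive cells in the 4 runs, at 1.36, 1.53, 1.53 and 1.61, and in Chga-positive cells, at 1.22, 1.34, 1.45 and 1.38. In Nts-positive cells it was at 0.870, 0.835, 0.815 and 0.688. By UMIs Ctsl gave most of this sum, and it was found in 97.9% of Gal-positive and 92.6% of Gal-negative cells.

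Of 7 receptors of galanin and neurotensin 5 were in the tables, and together these 5 came to between 0.523 and 0.975 CPM in the 4 runs. The neurotensin receptor genes Ntsr1 and Ntsr2 were the ones missing, so their levels are not known. Galr1 and Galr3 had no UMI. Of 39 other neuropeptide precursors 29 were in the tables, and they summed to 32.9 and 36.4 CPM in control and 22.7 and 24.1 CPM in NF2 KO. Nmb, the precursor of neuromedin B, was the only one to reach 20 CPM in a library, with 21.5 and 20.5 CPM in the control runs and 12.1 and 14.2 CPM in the NF2 KO runs.

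The neuronal and neuroendocrine list moved with none of the 3 in 1 direction. It was at 1.12 and 0.928 in Nts-positive cells of the control runs, at 0.787 and 0.659 in Chga-positive cells of control and at 1.10 and 1.18 in those of NF2 KO. Most of its level came from Uchl1, at 59.4 CPM in control and 39.9 CPM in NF2 KO. Other genes of the list went the other way, with Tubb3 at 5.99 and 25.8 CPM and Stmn2 at 3.32 and 6.72 CPM. Both were below the mean level set for a call. The endothelial list was at 0.845 to 1.001 in Gal-positive, 1.04 to 1.15 in Nts-positive and 0.811 to 0.946 in Chga-positive cells.

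Markers of other cell types moved with some of these results. The lymphatic list was higher in Gal-positive cells in all 4 runs, at 2.74, 2.84, 4.40 and 2.53, from 76.7 to 128 CPM in positive cells. Of its 6 genes, Lyve1 alone was found in over 1% of thinned cells, in 24.4% of Gal-positive and 8.98% of Gal-negative cells. The pericyte list was higher in Gal-positive cells of control (2.28 and 1.67) and lower in those of NF2 KO (0.599 and 0.826). Its gene Kcnj8, a leading gene of cluster 1, was found in 61.7% and 38.7% of Gal-positive and 29.1% and 21.8% of Gal-negative control cells. The list of epithelial and melanocytic tumour markers summed to 6.06 and 9.81 CPM in control and 38.4 and 31.0 CPM in NF2 KO. Its gene Cldn4, a leading gene of cluster 7, was found in 18.02% and 16.1% of Chga-positive and 4.65% and 3.53% of Chga-negative NF2 KO cells. The same list was higher in Gal-positive cells of all 4 runs, at 2.56 (0.752 to 7.04), 8.36, 2.72 and 3.71, with an interval that holds 1 in control run 1. The neutrophil list was at 2.86 in Gal-positive cells of control run 1 and between 0.651 and 0.962 in the other 3 runs. The platelet and erythroid list was at 315 CPM in Nts-positive and 36.1 CPM in Nts-negative cells of NF2 KO run 2, 8.72 times as high (6.53 to 11.5), and at 0.402 and 1.24 in the control runs. Its haemoglobin gene Hbb-bs was found in 10% of the 40 Nts-positive cells of that run. In Chga-positive cells that list was at 1.002 and 1.80 in control and at 0.505 and 0.162 in NF2 KO. The fibroblast list was at 3.36 (1.80 to 5.94) in Nts-positive cells of control run 1 and between 0.645 and 1.58 in the other runs. The pericyte and epithelial lists were below 1 in Nts-positive cells of all 4 runs, and the neutrophil list lay between 0.573 and 1.61. The pericyte interval excluded 1 only in control run 2 (0.278 to 0.806). The epithelial list came to at most 10.0 CPM in the Nts-positive cells of a run, and its interval held 1 in every run. The part of other cell types in the results was not tested.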

How the data were processed

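The authors deposited 1 table per library, whose values are natural log values: each UMI count was divided by its cell's total, scaled to 10000, and 1 was added, as tested on the values. The design had assumed counts; whole UMI counts were recovered for 100% of deposited values (tolerance 0.01 UMI), and no column of another sample was present. The submitters' processing notes name Cell Ranger 3.0.0, Seurat 3.1.1 and mm10. The 3 genes, the gene lists and the rules were chosen with earlier results of these data known.

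Filters were 500 genes and 1000 UMIs as minimum and 10% mitochondrial reads as maximum. The doublet caller's own threshold marked 0% of cells, so the top 5% by score were removed (129 and 166 cells). Cells were clustered with scanpy 1.11.5 (2000 variable genes, 30 components, 15 neighbours, Leiden resolution 0.8). Clusters 0, 4 and 11 of 13 were left out: their median depth was under 0.333 of their own sample's with no endothelial marker among 10 leading genes. Clusters 0 and 4 also had 2 neutrophil markers (S100a8, S100a9) among their leading genes, and Ptprc was at 37.3 CPM in cluster 0. A limit on Ptprc, added after the data were seen, left out no further cluster. In clusters 7 and 12, 1 leading gene was a marker of another cell type (Cldn4, Tagln), and in cluster 1 there were 2 (Kcnj8, Abcc9) and 1 endothelial marker.

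CPM are UMIs summed over retained cells per 1000000. Intervals are exact at 95% (Poisson, conditional binomial, Clopper-Pearson; SciPy 1.17.1). No test was possible with 1 library per group. The script was checked on simulated counts. Named genes were the 3 genes, those of the processing, receptor and neuropeptide lists with at least 20 CPM in a library, the 3 largest and 2 smallest tip genes by pooled log2 odds ratio (0.5 added to each count), at most the 1 largest of each other state list, and the 5 most like. Keeping to genes found in 1% to 95% of thinned cells was added after the data were seen. Kcnj8, Lyve1, Cldn4, Uchl1, Tubb3, Stmn2, Hbb-bs, Pcsk1, Scg2 and Chgb were named after their values were seen. Alternatives were other cell sets, thinning and leaving out each run.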

Additional observations from a re-analysis of the deposited data

How the results depend on the processing

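The ratio of NF2 KO over control was 0.185 for Gal. It moved to 0.125 without clusters 7 and 12, 0.166 at 5000 UMIs per cell and 0.309 without cluster 1. With the same cluster weights in both libraries, an alternative chosen after seeing the data, it was 0.194. That weighting used 9 clusters and left out cluster 1, which had only 8 NF2 KO cells. In cluster 7, 1 control cell held 235 of the 249 control Gal UMIs. The control level there was 526 CPM with that cell and 31.7 CPM without it. The weighted Gal ratio without that cell was not computed. For Nts the ratio of NF2 KO over control was 0.423. It moved to 0.341 with all deposited cells, 0.370 with cells gated one by one and 0.339 with doublets kept. It was 0.382 without clusters 7 and 12, 0.292 at 5000 UMIs and 0.368 with the same weights. No cluster had Nts among its leading genes, so that alternative has no value. For Chga it was 1.64, reversed to 0.732 without clusters 7 and 12 and to 0.846 without cluster 7, and moved to 2.95 with the same weights, where the 35 control cells of cluster 7 count as much as its 852 NF2 KO cells. Without clusters 1, 7 and 12, also chosen after seeing the data, the ratios were 0.220 for Gal, 0.254 for Nts and, reversed, 0.914 for Chga. Leaving out each run in turn gave 0.137 to 0.291 for Gal, 0.0863 to 0.767 for Nts and 1.29 to 2.31 for Chga. The counts of lower and higher genes stayed within 259 to 393 and 162 to 185. The pooled tip ratio of Gal (1.37) was 1.42 with at least 2 UMIs for a positive cell, 1.43 as a median over list genes and 1.29 to 1.41 without each run. That of Nts (0.918) was 0.891 at 2000 UMIs, 0.885 with at least 2 UMIs, 0.955 as a median and 0.853 to 0.968 without each run. That of Chga (1.12) was 1.09 at 2000 UMIs, 1.11 with at least 2 UMIs, 1.08 as a median and 1.07 to 1.16 without each run. Combined within runs, an alternative chosen after seeing the data, the tip ratios were 1.29 for Gal, 0.815 for Nts and 1.15 for Chga, and the pooled Nts value lies outside the 4 runs. The causes of the other changes were not tested. No paired analysis was possible because there was 1 library per group. NF2 KO run 1 held 10 Nts-positive thinned cells, and values from it rest on those.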
